A study of Mus musculus with 23 samples.

Results

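The transcripts of 10 circadian clock genes, Arntl, Clock, Npas2, Per1, Per2, Per3, Cry1, Nr1d1, Nr1d2 and Dbp, were followed in RNA-Seq of lung tissue from 23 adult mice. They were chosen by symbol from a table of 35322 genes, and all 10 were among the 16795 genes that passed the filter on low values. Lungs came from 13-week-old female Balb/c offspring in 4 groups. Sham offspring (7 libraries) were born to dams given saline and were themselves challenged with saline only. PM offspring (7 libraries) were challenged with saline and were born to dams given PM2.5, fine particulate matter collected at a roadside, into the nose from before mating until weaning. Sham-OVA offspring (5 libraries) and PM-OVA offspring (4 libraries) had the same maternal treatments and were sensitised to ovalbumin (OVA), an egg-white protein, and challenged with an OVA aerosol, which induces allergic airway disease (AAD). No transgene or deletion was used, and every animal underwent a methacholine lung function test under anaesthesia before its lung was taken. The hour at which each lung was taken and the litter of each animal are not given in the sources used here. Clock transcripts vary with the hour, so a difference in hour between groups cannot be told apart from an effect of OVA or maternal exposure. Fewer cells of a type and less RNA per cell cannot be told apart in bulk lung tissue.

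The circadian clock is a transcriptional loop that runs in nearly every cell of the lung. ARNTL (also called BMAL1) pairs with CLOCK or its relative NPAS2 and binds E-boxes to switch on the Per, Cry, Nr1d and Dbp genes, the PER and CRY proteins then block the pair, and the nuclear receptors NR1D1 and NR1D2 (REV-ERB alpha and beta) repress Arntl and Npas2 through ROR elements. DBP is a PAR bZIP factor that activates genes through D-boxes. Arntl and Dbp transcripts peak at opposite phases of the day. In the lung the clock is known for its presence in airway epithelium and for its links to inflammation and glucocorticoid response.

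The DNA elements of this loop can be read in the promoters of several members. RefSeq promoters of GRCm38.p6, each running from 250 bases before to 50 bases after a transcription start, were found for 9 of the 10 members, 13 promoters in all, with none for Per2. The letters searched on both strands were the E-box CACGTG, the D-box TTATGTAA or TTACGTAA, the ROR element, an AGGTCA core behind AT-rich bases, and the cAMP response element TGACGTCA. The 4 promoters below are shown because they were the ones that held a match, which is in capitals, and all are written 5′ to 3′ on the strand of the gene.
Arntl, chr7:113207261-113207560, plus strand, ROR element: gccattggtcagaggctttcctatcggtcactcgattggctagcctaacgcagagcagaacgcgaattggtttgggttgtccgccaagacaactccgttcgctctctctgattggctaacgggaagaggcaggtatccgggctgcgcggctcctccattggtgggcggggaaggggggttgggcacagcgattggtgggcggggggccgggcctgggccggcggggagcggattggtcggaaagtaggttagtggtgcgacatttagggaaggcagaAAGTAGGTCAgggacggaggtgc
Per1, chr11:69098699-69098998, plus strand, E-box: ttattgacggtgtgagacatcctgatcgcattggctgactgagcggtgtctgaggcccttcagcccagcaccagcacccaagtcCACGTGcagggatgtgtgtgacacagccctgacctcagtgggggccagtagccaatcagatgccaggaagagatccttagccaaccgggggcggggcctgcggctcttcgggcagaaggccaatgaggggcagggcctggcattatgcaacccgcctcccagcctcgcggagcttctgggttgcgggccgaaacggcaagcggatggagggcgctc
Per3, chr4:151044616-151044915, minus strand, 2 D-boxes: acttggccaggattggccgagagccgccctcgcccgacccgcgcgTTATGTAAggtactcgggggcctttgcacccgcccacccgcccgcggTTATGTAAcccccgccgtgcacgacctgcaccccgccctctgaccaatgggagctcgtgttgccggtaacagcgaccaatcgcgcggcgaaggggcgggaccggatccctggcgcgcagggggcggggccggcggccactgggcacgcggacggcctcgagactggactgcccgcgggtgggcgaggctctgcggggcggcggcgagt
Cry1, chr10:85185005-85185304, minus strand, E-box: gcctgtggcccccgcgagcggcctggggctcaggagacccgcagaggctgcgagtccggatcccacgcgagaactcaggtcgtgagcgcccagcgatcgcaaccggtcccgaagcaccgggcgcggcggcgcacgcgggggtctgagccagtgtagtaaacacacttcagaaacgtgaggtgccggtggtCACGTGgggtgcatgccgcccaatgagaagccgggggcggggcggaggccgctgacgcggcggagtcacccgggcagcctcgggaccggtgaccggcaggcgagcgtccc
Of 32851 promoters of this length, 7.15% held the E-box, 1.06% held either D-box form, 0.219% held the ROR element and 1.79% held the cAMP response element. The 9 other promoters of the members held none of these letters in this window.

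Libraries held 13089691 to 17393579 reads on genes in the Sham and PM groups, 2298645 to 12185451 in Sham-OVA and 4324326 to 12355561 in PM-OVA. Values are RPM, the reads of a gene scaled to the size of its library, and 1 read was worth at most 0.0688 RPM in the saline-challenged groups but 0.311 RPM in Sham-OVA replicate 3, 0.133 RPM in PM-OVA replicate 3 and 0.182 RPM in PM-OVA replicate 4. The library labelled Sham replicate 1 went against the female label, with Xist, which is transcribed from the inactive X chromosome, at 0.289 RPM against 174 to 1618 RPM in the other 22 libraries, and the Y-linked Eif2s3y at 54.0 RPM against 0. It was kept, and without it every member stayed on the same side of the test's threshold in the 3 comparisons that use it. OVA challenge altered most of the transcriptome, with 68.1% of tested genes called between Sham-OVA and Sham and 65.3% between PM-OVA and PM (limma, Benjamini-Hochberg adjusted p under 0.05).

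Levels of the members were first compared within Sham lung, per kilobase of exon, since RPM alone favours long transcripts. By median, the repressor of the second loop Nr1d1 (chr11:98767932-98775333, minus strand) was highest at 70.6 RPM per kb. Per1 (chr11:69095217-69109960, plus strand), a repressor that also responds directly to glucocorticoid and cAMP, followed at 42.8, and Dbp (chr7:45705088-45710203, plus strand) was close to it at 42.3 RPM per kb. Clock (chr5:76209868-76304792, minus strand) stood at 7.90, Per2 (chr1:91415982-91459324, minus strand) at 7.56, Per3 (chr4:151003652-151044665, minus strand) at 6.53 and Cry1 (chr10:85131700-85185064, minus strand) at 4.72 RPM per kb. The lowest were Nr1d2 (chr14:18204054-18239127, minus strand) at 2.01, Arntl (chr7:113207465-113314126, plus strand) at 1.06 and Npas2 (chr1:39193731-39363236, plus strand) at 0.582 RPM per kb. Gene positions are from the GENCODE annotation of GRCm38. In PM-OVA lung the order at the top differed, with Dbp at a median of 61.4, Nr1d1 at 46.6 and Per1 at 36.7 RPM per kb. These orders of medians are a description and were not tested.

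**Figure D1:**
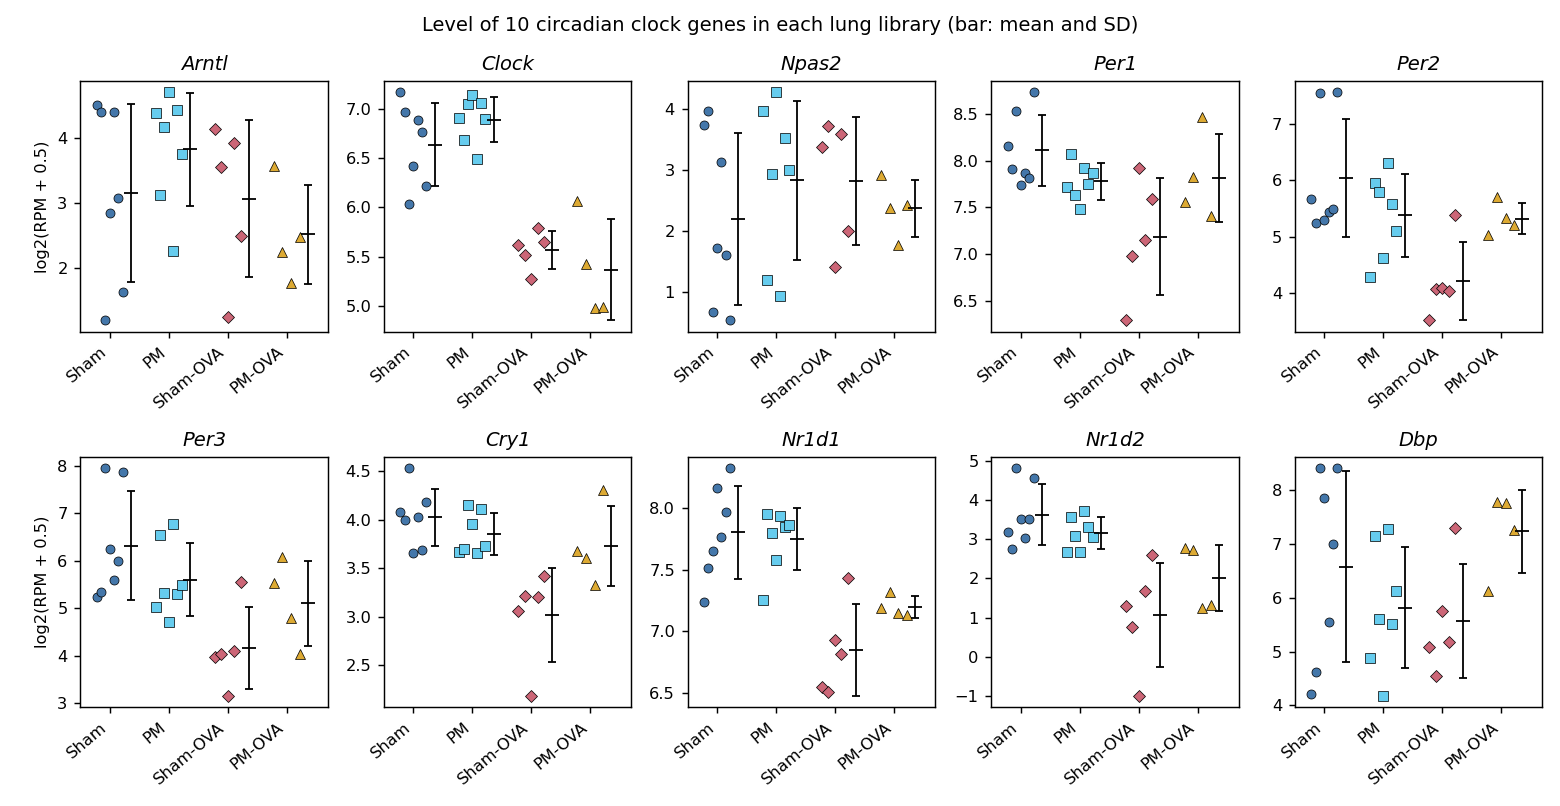
Level of each of the 10 clock genes in each of the 23 lung libraries, as log2(RPM + 0.5), by group, with the mean and SD of each group beside its points. Dbp, Arntl and Npas2 spread widely within Sham and PM, while Clock in every OVA library lies below every saline-challenged library of the same maternal exposure.

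Within Sham, all 10 members differed between animals by more than the median tested gene did. In this group, Dbp levels ran from 18.01 to 339 RPM with a median of 127, an SD of 1.78 on the log2 scale that only 4 of 16795 tested genes exceeded. Arntl ran from 1.79 to 22.1 RPM with a median of 7.96 in Sham, corresponding to 31 to 383 reads, and 19 tested genes had a larger SD. Npas2 ran from 0.954 to 15.1 RPM with a median of 2.79, with 15 genes above it. Per3 ran from 37.1 to 246 RPM with a median of 62.8 and Per2 from 37.5 to 188 RPM with a median of 44.3, and 34 and 50 tested genes had larger SDs. By contrast, Cry1 ranged from 12.1 to 22.6 RPM with a median of 15.8, an SD of 0.30 against a median SD of 0.26 over all tested genes. Clock, Per1 and Nr1d1 had SDs of 0.42, 0.38 and 0.38. The 4 genes above Dbp in Sham, named after their values were seen, were Xist, whose spread came with Sham replicate 1, and the liver-type transcripts Alb, Apoa1 and Ttr.

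The widest spreads in PM offspring were those of the same 5 members, with smaller spreads. Npas2 had an SD of 1.30 (from 1.41 to 18.9 RPM with a median of 7.57), exceeded by 21 tested genes, and Dbp had an SD of 1.13 (from 17.6 to 154 RPM with a median of 48.1), exceeded by 33. Arntl had an SD of 0.87 (from 4.28 to 25.5 RPM with a median of 17.4), Per3 of 0.77 and Per2 of 0.73, against a median of 0.20 over all tested genes. Per1, Cry1, Clock and Nr1d1 had SDs of 0.19 to 0.25. In the OVA groups the median SD of all tested genes was itself larger, at 0.48 in Sham-OVA and 0.54 in PM-OVA, and the members ranked lower in it, with Clock in Sham-OVA above only 11.96% of tested genes. Arntl in Sham-OVA had an SD of 1.20, exceeded by 707 tested genes, and Nr1d1 in PM-OVA, with 146, 159.5, 141 and 139 RPM in replicates 1 to 4, had an SD of 0.09, larger than in only 1.52% of tested genes.

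**Figure D2:**
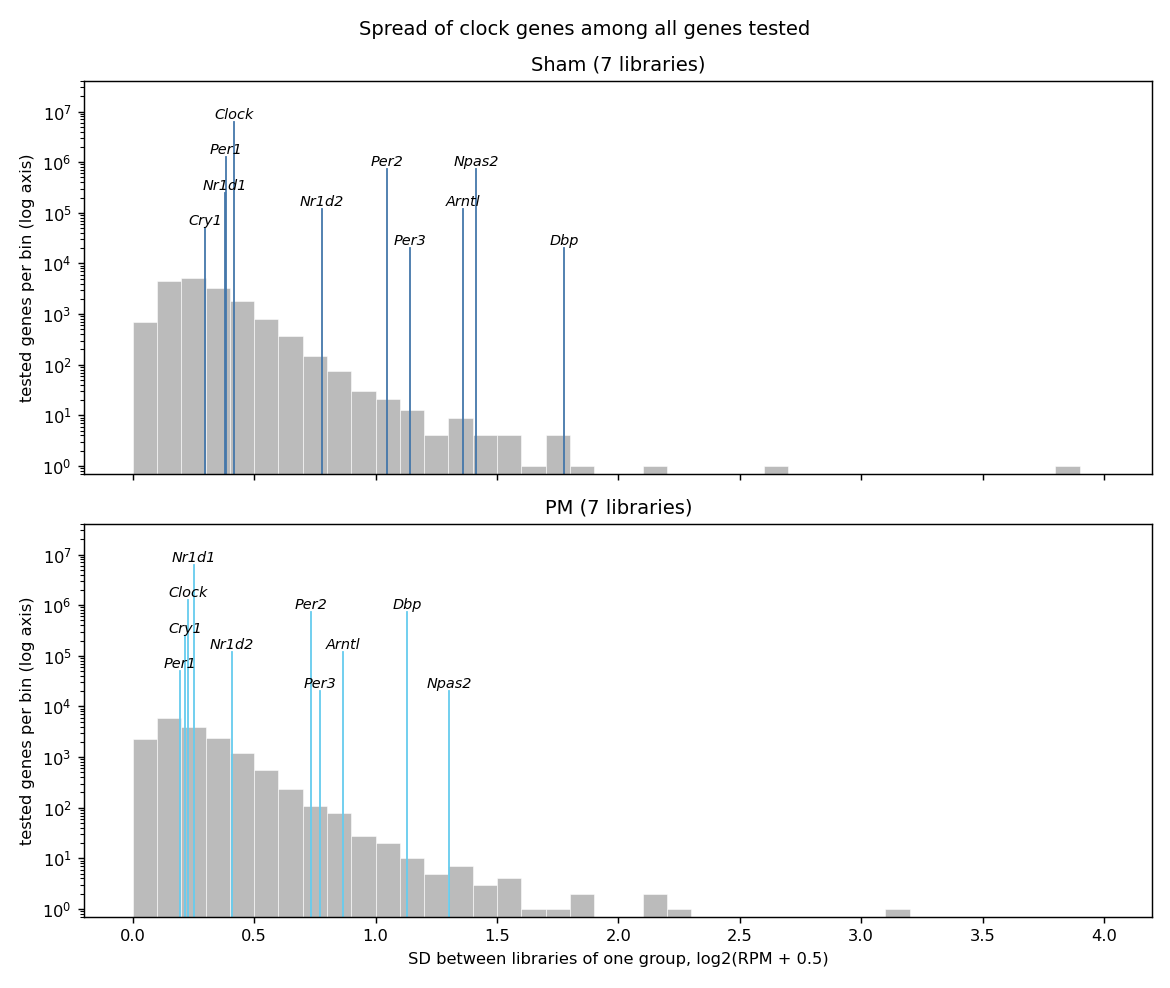
Number of tested genes (log axis) by their SD between the 7 libraries of Sham (top) and of PM (bottom) on the log2(RPM + 0.5) scale, with the 10 clock genes marked by lines whose height carries no value. Dbp, Npas2, Arntl, Per3 and Per2 lie in the far right of both distributions, and Cry1, Nr1d1 and Per1 lie near the bulk.

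The spread was ordered, since the animals that were low in the activators were high in the output factor and the Per genes. Sham replicates 3 and 7 had the lowest Arntl, 1.79 and 2.61 RPM, and the lowest Npas2, 1.1 and 0.954 RPM. These 2 animals had the highest Dbp, 339 and 338 RPM, the highest Per3, 246 and 233 RPM, and the highest Per2, 187 and 188 RPM. Sham replicates 1, 2 and 5 stood at the other end, with Arntl at 22.1, 20.6 and 20.6 RPM and Dbp at 18.01, 24.2 and 46.6 RPM. Replicates 4 and 6 lay between, with Arntl at 6.72 and 7.96 RPM and Dbp at 229.6 and 127 RPM, although their Per2 (38.6 and 44.3 RPM) was no higher than in replicate 1 (50.6 RPM). In PM offspring, replicates 5 and 2 had the lowest Arntl (4.28 and 8.18 RPM) with Dbp at 154 and 140.4 RPM, and replicate 4 had the highest Arntl (25.5 RPM) with the lowest Dbp (17.6 RPM). The difference of log2 Dbp and log2 Arntl therefore ran from -0.29 to 7.21 in Sham (3.43 ± 3.09, SD, n = 7) and from -0.52 to 5.01 in PM (1.99 ± 1.96, SD, n = 7). It ran from 0.95 to 4.80 in Sham-OVA (2.499 ± 1.97, SD, n = 5) and from 2.55 to 5.98 in PM-OVA (4.71 ± 1.52, SD, n = 4), and the ranges of the 4 groups overlapped.

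Relations of Arntl to the 9 other members were tested on log2(RPM + 0.5) within Sham and within PM, 18 relations in all, with exact two-sided permutation tests whose smallest possible p is 0.000198. In Sham, the partner gene Clock gave r = 0.964 and rho = 1, with exact permutation p-values of 0.000198 and 0.000397, adjusted to 0.00179 and 0.00238. Npas2 also moved with Arntl, at r = 0.962 and rho = 0.893. Moving against it were Per3 (r = -0.971 and rho = -1), Nr1d2 (r = -0.964 and rho = -0.893) and Dbp (r = -0.941 and rho = -1), and adjusted permutation p-values for the r of these 4 genes ran from 0.00179 to 0.00913. Per2 passed by Pearson's r (-0.843, adjusted permutation p = 0.0461) but not by rho (-0.50, adjusted permutation p = 0.300). Per1 (r = -0.672), Nr1d1 (r = -0.576) and Cry1 (r = -0.429) did not pass. In PM, Clock (r = 0.964 and rho = 0.964) and Npas2 (r = 0.954 and rho = 0.929) moved with Arntl, and Per3 (r = -0.965 and rho = -0.964) and Dbp (r = -0.926 and rho = -0.964) moved against it, with adjusted permutation p-values of 0.00268 to 0.00459 for r. Nr1d2 (r = -0.844, adjusted permutation p = 0.0300) and Per1 (r = -0.796, adjusted permutation p = 0.0461) passed by r but not by rho, and Per2, Nr1d1 and Cry1 passed by neither. In all, 6 of 9 relations passed by r in each group, and 5 in Sham and 4 in PM passed by rho.

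Without the 2 libraries farthest from the median of Arntl, 5 libraries remained in each group and the smallest possible permutation p was 0.00833. Clock, Per3 and Dbp within Sham (r = 0.874, -0.953 and -0.954) reached that p, which came to 0.05 after adjustment over the 18 relations, so that none passed and the step bears on the direction of r alone. The direction was the same for these 3, for Npas2 (0.956) and Nr1d2 (-0.856) within Sham, and for Clock (0.724), Npas2 (0.841), Per3 (-0.865), Dbp (-0.891), Per1 (-0.808) and Nr1d2 (-0.420) within PM. Those of Per2, Per1 and Cry1 within Sham turned to r = 0.292, 0.746 and 0.993, so that they rested on replicates 3 and 7. Without replicate 1, the library that went against its label, the same 6 relations within Sham passed by r in an alternative chosen after seeing the data, from -0.982 for Nr1d2 to 0.965 for Clock, with adjusted permutation p-values of at most 0.0479. No relation was tested in the OVA groups, which have fewer than 6 libraries each. In Sham-OVA, replicate 5 combined low Arntl (5.11 RPM) with the highest Dbp (156 RPM), whereas replicate 3, the shallowest library, had the lowest Arntl (1.86 RPM, 6 reads) with Dbp at 53.1 RPM.

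**Figure D3:**
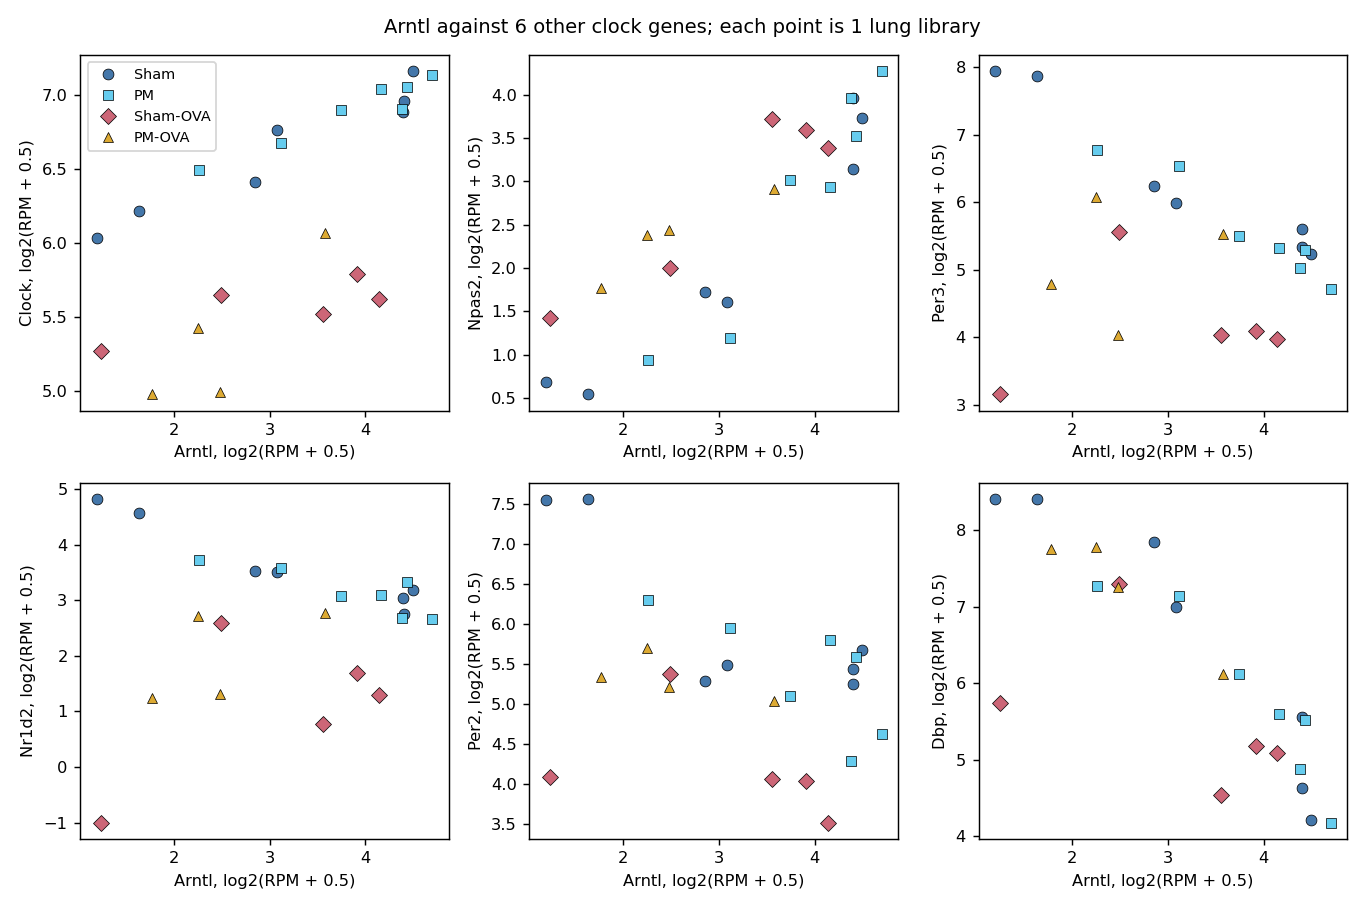
Arntl (horizontal axis) against Clock, Npas2, Per3, Nr1d2, Per2 and Dbp (vertical axes) on the log2(RPM + 0.5) scale, with 1 point for each of the 23 libraries, marked by group. Clock and Npas2 rise and Dbp and Per3 fall with Arntl across the Sham and PM points, and the OVA points of Clock lie lower at a given Arntl.

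The libraries with the lowest Arntl also differed in other transcripts. The summed level of 6 capillary endothelium markers was 2599 and 3208 RPM in Sham replicates 3 and 7, whereas the remaining 5 Sham animals had 4644 to 5967 RPM. It was 1840 RPM in PM replicate 5, whereas the remaining 6 PM animals, replicate 2 with 5226 RPM among them, had 4750 to 5647 RPM. PM replicate 5 lay outside the range of the other 6 in 12 of 16 cell type marker lists, with smooth muscle at 1287 against 429 to 651 RPM, alveolar type 2 at 31532 against 16961 to 19522 RPM and fibroblast at 3402 against 2370 to 3001 RPM. The summed level of 5 adipocyte markers was 13.2 and 11.9 RPM in Sham replicates 3 and 7 against 17.4 to 48.1 RPM in the others. Of the 16 cell type marker lists, only these lists and that of plasma cells (342 and 343 RPM against 350 to 534 RPM) put both Sham replicates outside the range of the other 5 on the same side. Xist was highest in the same 3 libraries, at 1244, 1618 and 1385 RPM. The part of these differences in the clock gene levels was not tested.

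Genes outside the 10 members were ranked by how closely their deviations from the group means followed those of a member over the 23 libraries, among 11715 genes with a mean of at least 5 RPM. These correlations are descriptions, since libraries share depth and composition. The closest to Arntl were Leo1, a subunit of the PAF1 elongation complex (r = 0.944), Slc16a10, an aromatic amino acid transporter (0.906), and Dtx4, a ubiquitin ligase (0.902). Closest to Dbp were Tspan4, a tetraspanin (0.915), Tef, another PAR bZIP factor (0.907), and Zfp346, a zinc finger protein (0.897). Closest to Per1 were Lrrc71 (0.862), Cry2, a partner of the PER proteins (0.854), and Mapk15 (0.844). Among the other members, named here after their values were seen, Per3 was closest to Hlf, the remaining PAR bZIP factor (0.926), Nr1d2 to Cipc, an inhibitor of the ARNTL-CLOCK pair (0.937), and Nfil3, a repressor that competes for D-boxes, was the gene most opposed to Dbp (-0.807). The gene closest to Clock was Itpripl2 (0.920), to Npas2 Leo1 (0.868) and to Per2 Gramd2 (0.8645). For Cry1 it was Rpf1 (0.820) and for Nr1d1 Rac3 (0.774). None of these was among the other clock genes described below. Tef ran from 203 to 745 RPM and Hlf from 17.6 to 129 RPM in Sham, and Nfil3 ran from 5.85 to 31.0 RPM. Over the same deviations, the members themselves formed pairs of high r, such as Arntl with Npas2 (0.929), Npas2 with Dbp (-0.914), Per3 with Nr1d2 (0.859) and Per2 with Per3 (0.826), while Cry1 stayed within -0.229 and 0.520 of every other member.

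In Sham offspring, the 3 Per genes, Cry1, both Nr1d genes and the activator Clock were lower after OVA challenge. The calls of Per1 and Nr1d1 were lost under some other scalings or tools. Between Sham-OVA and Sham, 7 of 10 members were lower and none was higher, against 47.5% of all tested genes called lower and 20.6% called higher. Since the median of all tested genes was itself -0.48 on the log2 scale, values are also given relative to it. So taken, the 7 lower members stood at -2.08 for Nr1d2, -1.67 for Per3, -1.34 for Per2, -0.58 for Clock, -0.53 for Cry1, -0.48 for Nr1d1 and -0.44 for Per1. The members not called stood at -0.53 for Dbp, 0.40 for Arntl and 1.11 for Npas2. The median log2 fold change over the 10 members was -1.01. No member met the study's stricter threshold (adjusted p under 0.000001 and absolute log2 fold change above 1) in limma, where 758 genes (4.51%) met it. The study applied this threshold to DESeq2 on raw counts. Here it was applied to the limma fits only, so the numbers of genes are not comparable with those of the study.

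Nr1d2 fell most. It stood at 1.95, 1.2, 0, 2.71 and 5.55 RPM in Sham-OVA replicates 1 to 5 and ran from 6.21 to 27.7 RPM with a median of 10.9 in Sham, so that no Sham-OVA library reached the lowest Sham library. Replicate 3 had 0 reads, which at its depth allows up to 0.932 RPM (3 reads, counting error only). The log2 fold change was -2.56 (SE 0.52, adjusted p = 0.000554), or -2.08 relative to the median of all genes. Per3 stood at 15.2, 15.9, 8.39, 16.6 and 46.5 RPM in Sham-OVA, below the Sham range of 37.1 to 246 RPM in 4 of 5 libraries, and its log2 fold change was -2.15 (SE 0.51, adjusted p = 0.00179). Per2 stood at 10.98, 16.2, 16.5, 15.9 and 41.1 RPM, below the Sham range of 37.5 to 188 RPM in 4 of 5 libraries, with -1.82 (SE 0.46, adjusted p = 0.00262). The exception for both Per genes was replicate 5.

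Clock stood at 48.8, 45.4, 38.2, 55.0 and 49.7 RPM in Sham-OVA against 65.1 to 143 RPM with a median of 108 in Sham, with a log2 fold change of -1.06 (SE 0.19, adjusted p = 0.000221). Cry1, a repressor of the ARNTL-CLOCK pair, stood at 7.85, 8.8, 4.04, 8.68 and 10.2 RPM against 12.1 to 22.6 RPM with a median of 15.8, with -1.01 (SE 0.23, adjusted p = 0.00121). For both genes, as for Nr1d2, the groups did not overlap, which held for 48.1% of all tested genes. Nr1d1 stood at 92.9, 90.5, 121, 112 and 172 RPM, with 4 of 5 libraries below the Sham range of 150.1 to 321 RPM, and its log2 fold change was -0.96 (SE 0.21, adjusted p = 0.000871). Per1 stood at 78.0, 126, 242, 141 and 192 RPM against 214 to 424 RPM with a median of 241, with 4 of 5 libraries below the Sham range and a log2 fold change of -0.92 (SE 0.26, adjusted p = 0.00531). The calls of Clock, Cry1, Per2, Per3 and Nr1d2 were made under every other scaling, tool and left-out library tried. Per1 lost its call under median-of-ratios scaling (-0.55, adjusted p = 0.145), under TMM scaling and with edgeR and DESeq2, and Nr1d1 lost it with edgeR (-0.47, adjusted p = 0.0762).

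Arntl, Npas2 and Dbp, the members with the widest spread, were not called. Arntl stood at 17.1, 11.3, 1.86, 14.6 and 5.11 RPM in Sham-OVA and within the Sham range, with a log2 fold change of -0.08 (95% interval -1.45 to 1.28, adjusted p = 0.914). That of Npas2 (9.94, 12.7, 2.17, 11.6 and 3.51 RPM) was 0.63 (95% interval -0.72 to 1.98, adjusted p = 0.393), and that of Dbp (33.4, 22.8, 53.1, 35.6 and 156 RPM) was -1.01 (95% interval -2.59 to 0.57, adjusted p = 0.238). The intervals of these 3 genes hold changes of more than 1 on the log2 scale in at least one direction.

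**Figure D4:**
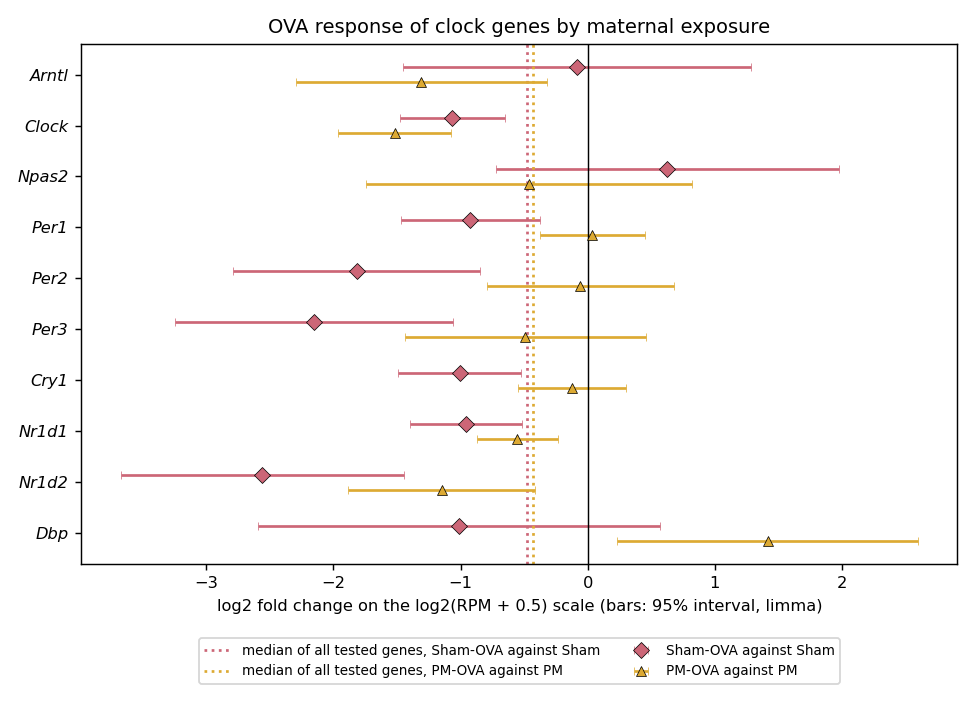
Log2 fold changes with 95% intervals (limma) of the 10 clock genes on OVA challenge, for Sham-OVA against Sham (diamonds) and PM-OVA against PM (triangles), with dotted lines at the medians of all tested genes (-0.48 and -0.43). Per1, Per2, Per3, Cry1 and Nr1d2 lie lower in the Sham comparison, and Dbp lies above 0 only in the PM comparison; under other scalings the signs of Arntl in the first and of Per2 and Cry1 in the second turned.

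In PM offspring, Clock, Arntl, Nr1d2 and Nr1d1 were lower and Dbp was higher after OVA challenge. The calls of all of these but Clock were lost under other settings. Between PM-OVA and PM, 4 of 10 members were thus lower and 1 higher, near the 45.2% of all tested genes called lower and 20.1% called higher. The median log2 fold change was -0.47 over the members and -0.43 over all tested genes. No member met the stricter threshold in limma, where 48 genes (0.286%) met it.

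Clock stood at 66.6, 42.7, 31.1 and 31.4 RPM in PM-OVA replicates 1 to 4 and ran from 89.7 to 140.2 RPM with a median of 119.6 in PM, and it was the only member whose groups did not overlap, as for 41.9% of all tested genes. Its log2 fold change was -1.52 (SE 0.21, adjusted p = 0.00011), or -1.09 relative to the median of all genes, and it was called in every alternative fit tried except at the stricter threshold. Arntl stood at 11.4, 4.25, 2.92 and 5.08 RPM, with 2 of 4 libraries below the PM range of 4.28 to 25.5 RPM, and its log2 fold change was -1.31 (SE 0.46, adjusted p = 0.023). Without PM-OVA replicate 2 or replicate 3 its adjusted p was 0.0570 or 0.0847, under median-of-ratios, TMM and quantile scaling it was 0.0629 to 0.0949, and the call was also lost with no filter (0.0536), with all 4 groups in one fit (0.0719), with edgeR (0.0563) and without the 2 shallow PM-OVA libraries (0.195). Nr1d2 stood at 6.32, 6.11, 1.86 and 2.00 RPM against 5.86 to 12.7 RPM with a median of 8.05 in PM, with 2 of 4 libraries below the PM range and a log2 fold change of -1.15 (SE 0.34, adjusted p = 0.0101). The low values were those of replicates 3 and 4, the shallower libraries, and without them the log2 fold change was -0.42 (adjusted p = 0.219).

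Nr1d1 stood at 146, 159.5, 141 and 139 RPM against 152 to 248 RPM with a median of 231, with 3 of 4 libraries below the PM range. Its log2 fold change was -0.55 (SE 0.15, adjusted p = 0.00531), close to the median of all genes, and the call was lost under median-of-ratios scaling (-0.19, adjusted p = 0.315), under TMM and quantile scaling, and with edgeR and DESeq2. Dbp stood at 69.3, 219.9, 215 and 152 RPM against 17.6 to 154 RPM with a median of 48.1, with 2 of 4 libraries above the highest PM library. Its log2 fold change was 1.41 (SE 0.55, adjusted p = 0.0361), and 94.8% of tested genes had a lower one. That call was lost when any of PM replicates 1, 3, 4 and 6 or PM-OVA replicates 2, 3 and 4 was left out (adjusted p = 0.0574 to 0.105), with no filter (0.0830), with all 4 groups in one fit (0.0972) and with array weights (0.0708). It was 1.14 (adjusted p = 0.206) without PM-OVA replicates 3 and 4.

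The Per genes, Cry1 and Npas2 were not called between PM-OVA and PM. Per1 stood at 188, 226, 354 and 169 RPM against 178 to 268 RPM, with 0.04 (95% interval -0.38 to 0.45, adjusted p = 0.875). Per2 stood at 32.4, 51.5, 39.8 and 36.7 RPM, within the PM range of 19.1 to 78.4 RPM, with -0.06 (95% interval -0.79 to 0.68, adjusted p = 0.891). Per3 stood at 45.7, 66.9, 27.1 and 15.8 RPM against 25.6 to 109 RPM, with -0.49 (95% interval -1.44 to 0.46, adjusted p = 0.337). For Cry1 (12.3, 11.7, 9.56 and 19.2 RPM) it was -0.12 (95% interval -0.55 to 0.31, adjusted p = 0.601) and for Npas2 (7.05, 4.71, 2.92 and 4.9 RPM) it was -0.46 (95% interval -1.74 to 0.82, adjusted p = 0.511). The signs of Per2 and Cry1 turned positive under median-of-ratios, TMM and quantile scaling.

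Whether the OVA response differed with maternal exposure was tested as an interaction, the change in PM offspring minus the change in Sham offspring. No gene of the transcriptome was called by limma or edgeR at an adjusted p under 0.05, and DESeq2 called 2, neither a member. At an unadjusted p under 0.05 limma found 854 genes (5.08%) and 6 of 10 members. These were Dbp (2.42, SE 1.01), Per2 (1.76, SE 0.62), Per3 (1.66, SE 0.73), Nr1d2 (1.41, SE 0.68), Per1 (0.96, SE 0.34) and Cry1 (0.88, SE 0.30), all positive, with adjusted p-values of 0.671 to 0.974. The interaction estimates of Arntl (-1.22 (95% interval -3.00 to 0.56, adjusted p = 1)), Npas2 (-1.08 (95% interval -3.01 to 0.85, adjusted p = 1)), Clock (-0.46 (95% interval -1.05 to 0.14, adjusted p = 1)) and Nr1d1 (0.40 (95% interval -0.14 to 0.95, adjusted p = 1)) had intervals that held 0. Dbp had a higher estimate than the other 16794 tested genes, and Per2 a higher one than 16792 of them. The SEs of both were above the median SE of 0.348 over all tested genes, and their spread between Sham animals was among the largest. The 6 members are not separate signals, since deviations of some moved together over the libraries. The r was 0.859 for Per3 with Nr1d2 and 0.826 for Per2 with Per3, but -0.229 for Per1 with Cry1. With array weights, which down-weight variable libraries, 4616 genes were called, among them Per1 (1.23, adjusted p = 0.00853) and Clock (-0.74, adjusted p = 0.0410). Without the 3 shallowest libraries, an alternative chosen after seeing the data, 721 genes and no member were called.

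The direct comparison of the OVA groups called no member. No gene was called between PM-OVA and Sham-OVA by limma or edgeR, 1 gene that was no member was called by DESeq2, and 313 genes (1.86%) had an unadjusted p under 0.05. Dbp was higher in PM-OVA by 1.66 (95% interval 0.44 to 2.89, adjusted p = 1) and Per2 by 1.10 (95% interval 0.33 to 1.88, adjusted p = 1), the 2 members with an unadjusted p under 0.05 (0.0130 and 0.00983). PM-OVA libraries lay above the highest Sham-OVA library in 3 of 4 for Cry1, 2 of 4 for Dbp and Nr1d2, and 1 of 4 for Per1, Per2 and Per3, so that all members overlapped, whereas 0.607% of tested genes did not. The estimates were 0.95 for Nr1d2, 0.94 for Per3, 0.71 for Cry1, 0.63 for Per1, 0.35 for Nr1d1, -0.20 for Clock, -0.45 for Npas2 and -0.55 for Arntl. This comparison shares its libraries with the interaction and is no separate evidence.

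Maternal exposure without OVA moved no member past the test. Between PM and Sham no gene was called by limma, edgeR or DESeq2, and 731 genes (4.35%) had an unadjusted p under 0.05. Among the members only Per1 did, at 178 to 268 RPM in PM against 214 to 424 RPM in Sham, with a log2 fold change of -0.33 (95% interval -0.65 to -0.02, adjusted p = 0.898). The estimates of Dbp (-0.76 (95% interval -2.23 to 0.70, adjusted p = 0.899)), Per3 (-0.72 (95% interval -1.68 to 0.24, adjusted p = 0.898)) and Per2 (-0.66 (95% interval -1.55 to 0.24, adjusted p = 0.898)) were negative, and those of Arntl (0.68 (95% interval -0.45 to 1.80, adjusted p = 0.898)) and Npas2 (0.64 (95% interval -0.71 to 1.98, adjusted p = 0.902)) were positive. Only 2, 4 and 10 tested genes had lower estimates than Dbp, Per3 and Per2, whose spread between Sham animals was also among the largest. Sham replicates 3 and 7 lay above the PM range for these 3 genes, joined by replicate 4 for Dbp, and the other Sham libraries did not. No member separated the 2 groups, as did 1 tested gene (0.00595%). The estimates of Clock (0.25), Nr1d2 (-0.46), Cry1 (-0.17) and Nr1d1 (-0.05) were smaller than 0.50 in either direction.

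Placed in order of their medians, Per1, Per3, Cry1 and Nr1d2 ran from Sham through PM and PM-OVA to Sham-OVA, and of the neighbouring steps only that from PM to PM-OVA of Nr1d2 passed its test. Clock ran from PM through Sham and Sham-OVA to PM-OVA, with the step from Sham to Sham-OVA alone passing. Nr1d1 and Per2 ran from PM through Sham and PM-OVA to Sham-OVA, Arntl from PM through Sham-OVA and Sham to PM-OVA, Npas2 from Sham-OVA through PM and PM-OVA to Sham, and Dbp from PM-OVA through Sham and PM to Sham-OVA. In these 5 orders no neighbouring step that the design compares passed its test, and steps between groups differing in both treatments were not tested.

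Among 28 other clock genes, 27 were tested. Between Sham-OVA and Sham, 7 were higher, 11 lower and 9 not called, and between PM-OVA and PM, 10 were higher, 10 lower and 7 not called, beside the shares of all tested genes of 20.6% higher and 47.5% lower in the first comparison and 20.1% and 45.2% in the second. In the core and accessory loop, 2 of 9 were higher and 3 lower in the Sham comparison, and 4 and 4 in the PM comparison. Nono, an RNA-binding partner of the PER proteins, was lower by -2.99 and -2.35 on the log2 scale in the Sham and PM comparisons, from levels of 1.71 to 9.29 RPM in Sham to 0 to 0.417 RPM in Sham-OVA. Rora, the activator at ROR elements, changed by -1.80 and -1.63, from 91.5 to 132 RPM in Sham to 17.1 to 43.7 RPM in Sham-OVA. Cry2 changed by -1.14 and -0.45.

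Of 10 kinases, ligases and proteases that act on clock proteins, 3 were higher and 4 lower in the Sham comparison, and 4 and 4 in the PM comparison. Fbxl21, an F-box protein low at 0.725 to 1.62 RPM in Sham, changed by -0.87 and -1.16, and the kinase Gsk3b changed by -0.73 and -0.69. Of 8 other output factors, 2 were higher and 4 lower in the Sham comparison, and 2 and 2 in the PM comparison. Klf15, a glucocorticoid-induced factor, changed by -3.08 and -2.46, from 92.9 to 186 RPM to 5.28 to 35.1 RPM. The repressors Bhlhe40 and Bhlhe41 rose, by 1.42 and 1.41 for Bhlhe40 and by 1.22 and 1.25 for Bhlhe41. Adjusted p-values of these 8 genes were at most 0.0154 in the Sham comparison and 0.0233 in the PM comparison, and no gene of these lists was called in the other 3 comparisons.

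Summed levels of cell type markers changed with OVA challenge alongside the members, and whether cell numbers changed cannot be told from these sums. The summed level of 6 plasma cell markers was 342 to 534 RPM in Sham and 7219 to 12495 RPM in Sham-OVA, that of 6 interstitial macrophage markers was 142 to 272 and 1604 to 2450 RPM, and that of 6 fibroblast markers was 2080 to 2676 and 634 to 1413 RPM. In PM and PM-OVA these sums were 358 to 501 and 6737 to 10979 RPM for plasma cells, 221 to 392 and 1388 to 2152 RPM for interstitial macrophages, and 2370 to 3402 and 645 to 2094 RPM for fibroblasts. In each OVA comparison, 5 plasma cell markers were called higher and 1 lower, and 5 interstitial macrophage markers were higher and 1 not called. Of the fibroblast markers, 3 were lower and 3 not called. Sums of 6 eosinophil markers were 4.27 to 17.9 RPM in Sham and 27.96 to 105.6 RPM in Sham-OVA. In PM and PM-OVA they were 5.399 to 22.3 and 43.02 to 63.96 RPM. Of these 6 markers, 5 were called higher and 1 lower in each OVA comparison. Among them, Epx alone was at 0 in all Sham and PM libraries. Epithelial markers were present in every library and their sums also differed. Those of 6 alveolar type 2 markers were 13910 to 24353 RPM in Sham and 29736 to 36488 in Sham-OVA, without overlap, and 16961 to 31532 in PM and 23939 to 43323 in PM-OVA. These 6 markers did not move together, with 2 called higher, 2 lower and 2 not called in each OVA comparison. Their median log2 fold change was 0.05 in the Sham comparison and 0.01 in the PM comparison. Sums of 5 multiciliated markers were 134 to 241 RPM in Sham, 61.0 to 343 in Sham-OVA, 147 to 159 in PM and 203 to 567 in PM-OVA. Of these 5 markers, 1 was called higher and 4 not called in the Sham comparison, and all 5 were higher in the PM comparison. In the interaction none was called and 4 had an unadjusted limma p under 0.05. The median interaction estimate was 1.27 over these 5 markers and 0.92 over the 10 members. Medians of the sum of 4 club cell markers were 23779 RPM in Sham, 12159 in Sham-OVA, 19043 in PM and 24558 in PM-OVA. Of these 4 markers, 1 was called higher and 2 lower in each OVA comparison. The part of these shifts in the clock gene changes was not tested.

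Several members overlap other genes, and whether counting used strand is not stated. Dbp overlaps Sphk2 on the other strand, which had medians of 56.3 to 58.4 RPM in the 4 groups while Dbp ran from medians of 35.6 to 184 RPM. Nr1d1 overlaps Thra on the other strand, with medians of 91.9 to 159 RPM, so reads of these 2 genes cannot be told apart without strand. Per3 overlaps Camta1 on the same strand, with medians of 12.7 to 20.0 RPM.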

How the data were processed

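Poly-A RNA from the lungs of 23 mice was sequenced as single-end reads, and each library took its group from its label. By the study's methods the RNA came from a portion of the right lower lobe, which its results call whole lung tissue. According to the study's methods, trimming by Trimmomatic was followed by alignment with Bowtie2, an unspliced aligner, against GRCm38 (mm10 in the submitters' processing notes) and by quantification in SeqMonk. The values deposited by the authors are RPM, reads scaled to the size of each library, for 35322 genes; their table is named after RPKM, but whatever the gene length, 100% of values came out as whole reads in every library (tolerance 0.05 reads), and these reads were recovered.

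Values were transformed to log2(RPM + 0.5), and a fold change on this scale understates that of low genes. The test was limma (version 3.58.1, R 4.3.3) over the 16795 genes that reached 0.5 RPM in 4 or more libraries, with a variance trend and Benjamini-Hochberg adjustment over all of them. It was tested on simulated data, and genes were called at an adjusted p under 0.05. Each comparison was fitted on its own groups, and the interaction on all 4. p-values measure the spread between animals of a group, whose litters are not given. edgeR 4.0.16 and DESeq2 1.42.0 on recovered reads were alternatives. Relations between members used exact permutation tests in Python 3.11.15.

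The members and the lists of other clock genes and markers were chosen with earlier results of these data known. All members were described, with 3 genes per list of other clock genes, those with the largest absolute log2 fold change between Sham-OVA and Sham among genes called in both OVA comparisons, any called in the remaining 3 comparisons, and the 3 genes closest to Arntl, Dbp and Per1. Of the genes so chosen, 1 is not reported here. DNA methylation was not analysed here.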

Additional observations from a re-analysis of the deposited data

Results flagged for a closer look

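In Sham-OVA, replicate 5 stood far above the other 4 libraries for 3 members, with gaps to the nearest library that took up more of the group's range than Dixon's 95% critical value of 0.710 allows. Per2 was at 41.1 RPM there (gap 0.818 of the range), Per3 at 46.5 RPM (0.785) and Dbp at 156 RPM (0.773). In the same library Arntl was at 5.11 RPM and Npas2 at 3.51 RPM, the second lowest of each in its group. It also had the highest sum of 4 club cell markers in its group, 27932 RPM against 3726 to 17331, and a sum of 5 multiciliated markers of 339 RPM against 61.0 to 343; their part was not tested. Of 44 groups of values examined, 3 stood apart in this way, and chance gives about 1 in 20. Without this library the log2 fold changes between Sham-OVA and Sham were -2.11 for Per2, -2.50 for Per3 and -1.44 for Dbp, which was not called with or without it. The cause was not tested.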

How the results depend on the processing

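Depth limits the low members, since Arntl rested on 6 reads in the shallowest Sham-OVA library and on 22 and 28 reads in the 2 shallow libraries of PM-OVA. The median log2 fold change of all tested genes moved from -0.48 to -0.17, -0.18 and -0.09 in the Sham comparison under median-of-ratios, TMM and quantile scaling, and from -0.43 to -0.13, -0.12 and -0.06 in the PM comparison, so that the share of called genes that were higher rose from 30.2% to 43.4%, 43.1% and 46.6% and from 30.8% to 44.7%, 45.3% and 47.5%. With edgeR and DESeq2 these shares were 49.6% and 45.3%, and 50.1% and 49.7%. Members lower in the Sham comparison numbered 5 with edgeR, 6 with DESeq2, median-of-ratios or TMM scaling and 7 with the other settings at the same threshold. The cause of the lost calls was not tested.

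Between Sham-OVA and Sham, the uncalled value of Arntl turned to 0.24 under median-of-ratios, 0.23 under TMM and 0.38 under quantile scaling, 0.18 with edgeR, 0.0194 with DESeq2 and 0.37 without these 3 shallow libraries, an alternative chosen after seeing the data. With 1 library left out it ran from -0.41 to 0.37. Between PM-OVA and PM, the uncalled value of Per2 turned to 0.30, 0.32 and 0.32 and that of Cry1 to 0.23, 0.24 and 0.30 under these 3 scalings, to 0.20 and 0.30 with edgeR, and to 0.21 and 0.32 with DESeq2. Per2 was at 0.0133 with array weights, Cry1 at 0.30 with all libraries thinned to 1 depth, and Per1 at -0.0893 and Per3 at 0.21 without the shallow libraries. With 1 library left out Per1 ran from -0.18 to 0.17, Per2 from -0.24 to 0.10 and Cry1 from -0.31 to 0.0106. Nr1d1 between PM and Sham turned to 0.00601 with array weights and 0.0419 at 1 depth, and ran from -0.15 to 0.0332 with 1 library left out. Clock between PM-OVA and Sham-OVA was at 0.10 without the shallow libraries.

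At the stricter threshold, limma called 758 genes in the Sham comparison and 48 in the PM comparison, against 11431 and 10968. With 1 library left out these counts ran from 10914 to 12146 and from 9592 to 12083. Between PM-OVA and Sham-OVA, 1 gene was called with all 4 groups in one fit and 1 with DESeq2, against 0. For the interaction, 1 gene was called with no filter, 2 with DESeq2, 4616 with array weights and 721 without the shallow libraries, and 0 to 6 with 1 library left out (6 without Sham-OVA replicate 5). Of the 12 relations of Arntl that passed, 0 did without the 2 farthest libraries, where 5 libraries allow no permutation p under 0.00833 and the lowest adjusted p was 0.05, so that this count says nothing about stability. There those of Per1, Per2 and Cry1 within Sham turned to 0.746, 0.292 and 0.993. Under median-of-ratios scaling 11 passed.

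The labels give no shared origin for a replicate number, and in no comparison did all same-numbered libraries have deviations correlated above 0.1, so the numbers were not taken as pairs. These numbers are those of the sample titles. In the OVA groups most library names carry other numbers, and pairing by library name was not tested. The correlations were -0.0665 to 0.115 between Sham-OVA and Sham, -0.101 to 0.0625 between PM-OVA and PM and -0.248 to 0.104 between PM and Sham. Between PM-OVA and Sham-OVA they were 0.595, 0.22 and 0.617 for 3 pairs and -0.311 for the fourth, and 2 of 4 PM-OVA libraries correlated best with their own number. With the number as a replicate block, 10025 genes were called in the Sham comparison and 7982 in the PM comparison, where Per2 was at 0.16 and the calls of Nr1d1 and Nr1d2 were lost.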
